A study of Homo sapiens with 12 samples.

Results

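The genes described here are kinesin-2 and kinesin-3 genes grouped as axonal motors, with *KIFAP3* among them as an adaptor. The members are *KIF3A*, *KIF3B*, *KIF3C*, *KIFAP3* and *KIF17* of kinesin-2 and *KIF1A*, *KIF1B*, *KIF1C*, *KIF13A* and *KIF13B* of kinesin-3. They were taken by gene name, and all 10 were listed once in both deposited tables, among 16406 genes for iMNs and 19016 genes for i3Ns. Total RNA was sequenced after ribosomal RNA depletion in 12 libraries, 3 with a scrambled shRNA (SCR) and 3 with an shRNA against *SMN1* and *SMN2* (*SMN*-KD) for each cell type. The iMNs were motor neurons made with small molecules from 1 line of human induced pluripotent stem cells and sorted for Td-Tomato driven by the HB9 promoter. The i3Ns were labelled cortical neurons and were made from H1, an established human embryonic stem cell line, by inducing the neurogenic factor NGN2. Each cell type thus rests on 1 line. In both groups of both cell types the shRNA came from a doxycycline-inducible lentiviral vector, so the SCR neurons also carried the virus.

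Each table gives 1 mean per gene over the 6 libraries of its cell type, SCR and *SMN*-KD together. A value for a single library is therefore not given for any gene, the depth of the libraries is unknown, and no difference below could be set against the spread between replicates. The effect of *SMN*-KD on these motors was not analysed here, because the tables hold it only as the authors' own comparison, and with the groups pooled the knockdown of *SMN1* and *SMN2* could not be checked either. What follows is how much RNA of each motor the 2 neuron types held, as descriptions without a test.

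Kinesins are motor proteins that use ATP to walk along microtubules, most of them toward the plus ends, which point to the axon tip. Kinesin-2 works mainly as a heterotrimer, in which KIF3A pairs with KIF3B or KIF3C and the adaptor KIFAP3 links the tails to cargo, while KIF17 forms homodimers. Kinesin-3 motors move over long distances. KIF1A and KIF1B carry synaptic vesicle precursors and dense core vesicles, and mutations of *KIF1A* are known from hereditary spastic paraplegia and sensory neuropathy.

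The members differed widely in level. To compare genes, the mean normalized count was divided by the length of the gene's MANE Select transcript (the reference transcript of a gene) and scaled to a sum of 1000000 over all genes of the table with a known length. On this length-scaled level, *KIF1A* was the highest member and stood 179 times above the lowest one in iMNs, *KIF13B*, and 774 times above the lowest one in i3Ns, *KIF17*. The first 7 places, from *KIF1A* through *KIF1B*, *KIF3C*, *KIFAP3*, *KIF3B* and *KIF3A* to *KIF13A*, were taken by the same genes in the same order in both cell types. With the coding length in place of the transcript length, *KIFAP3* fell behind *KIF3B* and *KIF3A* in both, and *KIF1C* moved ahead of *KIF13A* in iMNs. With the longest annotated transcript, *KIF3B* (171) passed *KIFAP3* (164) in iMNs but not in i3Ns (137 and 144), so the order was no longer shared.

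**Figure D1:**
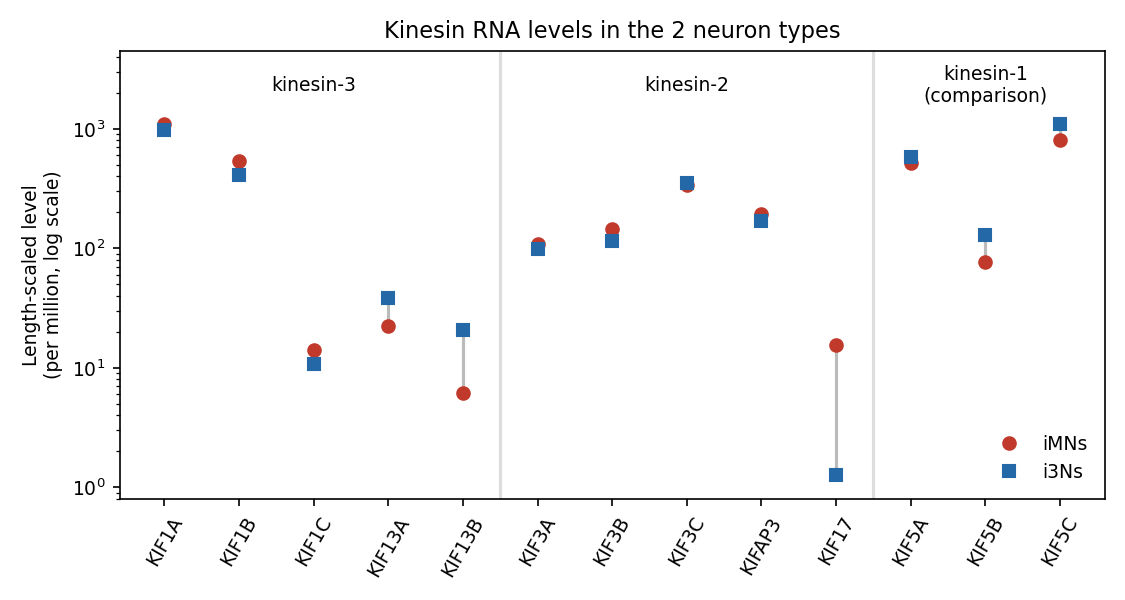
Length-scaled level (per 1000000, log axis) of the 10 members and of the 3 kinesin-1 heavy chains, with a circle for the authors' mean over the iMN libraries and a square for that over the i3N libraries. No error bars are drawn because the deposited means carry none. *KIF1A* lies near 1093 in iMNs and 979 in i3Ns, and *KIF17* has the widest gap, from 15.4 down to 1.27.

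*KIF1A*, the main carrier of synaptic vesicle precursors, lies on the minus strand of chromosome 2 from 240713761 to 240824293 (GRCh38). Its mean normalized count, given as the authors' mean, was 138858 in iMNs and 124466 in i3Ns. Its length-scaled level was 1093 in iMNs and 979 in i3Ns, and 99.5% of the genes lay below it in each table. This placed *KIF1A* in the range of common neuronal transcripts, such as *MAP2*, a microtubule-associated protein of dendrites, at 840 in iMNs and 616 in i3Ns on the same scale.

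*KIF1B* on the plus strand of chromosome 1 (10210570 to 10381603) produces a long isoform that carries synaptic vesicle precursors and a short one that was described as a mitochondrial motor. The isoforms were not separated in the tables. Its authors' mean was 81750 normalized counts in iMNs and 61971 in i3Ns, and its length-scaled level of 541 in iMNs and 410 in i3Ns was above that of 98.6% and 98.4% of the genes. *KIF1A* exceeded *KIF1B* by 2.02 times in iMNs and 2.39 times in i3Ns.

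The 3 other kinesin-3 members were far less abundant. *KIF1C* (chromosome 17, 4997950 to 5028401, plus strand), a motor found in many tissues that carries dense core vesicles and integrins, had an authors' mean of 1558 normalized counts in iMNs and 1195 in i3Ns. Its length-scaled level of 14.1 in iMNs and 10.8 in i3Ns lay below that of the median gene, and *KIF1A* exceeded it by 77.3 and 90.3 times. *KIF13A* (chromosome 6, 17759183 to 17987635, minus strand), which moves endosomes and vesicles of the AP-1 adaptor complex, had means of 1882 in iMNs and 3198 in i3Ns, and length-scaled levels of 22.5 and 38.2. *KIF13B* (chromosome 8, 29067278 to 29263124, minus strand) had means of 744 and 2543 and length-scaled levels of 6.12 and 20.9. Together, *KIF1A* and *KIF1B* made up 97.4% of the length-scaled level of the 5 kinesin-3 members in iMNs and 95.2% in i3Ns.

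Within kinesin-2, *KIF3C* was the highest heavy chain in both cell types. *KIF3C* lies on the minus strand of chromosome 2 (25926598 to 25982749) and encodes a neuron-enriched partner of KIF3A. Its authors' mean was 25000 normalized counts in iMNs and 25934 in i3Ns, and its length-scaled level was 336 and 349. *KIF3B* on chromosome 20 (32277651 to 32335011, plus strand), the widely expressed partner, had means of 12216 and 9849 and length-scaled levels of 144 and 116. *KIF3A* on chromosome 5 (132692628 to 132737638, minus strand), the subunit shared by both heterodimers, had means of 9581 and 8615 and length-scaled levels of 109 and 98.1.

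The shared subunit was thus the lowest of the 3 heavy chains at the RNA level. The partners *KIF3B* and *KIF3C* added up to 4.4 times the length-scaled level of *KIF3A* in iMNs and 4.74 times in i3Ns, and *KIF3C* alone made up 57.1% and 62.0% of the 3. *KIFAP3* on chromosome 1 (169921326 to 170085208, minus strand), the cargo adaptor, had authors' means of 7903 and 6949 and length-scaled levels of 192 and 169. This was 1.76 times *KIF3A* in iMNs and 1.72 times in i3Ns, a ratio that rests on the length used. With the coding part of the transcript as the length, *KIFAP3* moved below *KIF3A* in both cell types, since the MANE Select 3′-UTR of *KIFAP3* is 347 bases long and that of *KIF3A* 4003. With the coding length, *KIF3A* also remained below *KIF3B* and *KIF3C* in both cell types, but by a smaller excess of the 2 partners together. The levels of *KIF3A*, *KIF3B* and *KIF3C* were then 133, 165 and 318 in iMNs and 119, 133 and 329 in i3Ns.

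*KIF17*, the homodimeric kinesin-2 known for carrying NMDA receptor vesicles in dendrites and for its place in cilia, lies on the minus strand of chromosome 1 (20664014 to 20718017). Its authors' mean was 848 normalized counts in iMNs and 69.7 in i3Ns. Its length-scaled level was 15.4 in iMNs, where 43.7% of the genes lay below it, and 1.27 in i3Ns.

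*KIF13B* and *KIF17* stood at different places of the order in the cell types. *KIF13B* was the lowest member in iMNs and stood above *KIF1C* and *KIF17* in i3Ns, while *KIF17* was at the eighth place in iMNs and at the last in i3Ns. *KIF3A* exceeded *KIF17* by 7.09 times in iMNs and by 77.5 times in i3Ns, and *KIF13A* exceeded *KIF13B* by 3.68 and 1.83 times. The sizes of these ratios rest on the length used. With the coding length, *KIF3A* and *KIF17* were at 133 and 8.31 in iMNs and at 119 and 0.683 in i3Ns. *KIF13A* and *KIF13B* were then at 10.5 and 4.1 in iMNs and at 17.8 and 14.0 in i3Ns. *KIF17* then also fell behind *KIF1C* (14.2) in iMNs.

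*KIF17* and *KIF13B* were the members that differed most between the cell types. Since the tables were normalized separately, each authors' mean was expressed per 1000000 over the 16093 genes found in both tables before the ratio of iMNs to i3Ns was taken. *KIF17* had 19.6 per 1000000 in iMNs and 1.55 in i3Ns, which was 12.6 times higher in iMNs (log2 ratio 3.66). *KIF13B*, which binds the scaffold protein DLG1, had 17.2 in iMNs and 56.7 in i3Ns, 3.29 times higher in i3Ns (log2 ratio -1.72). Its paralog *KIF13A* also had the higher value in i3Ns, 71.3 per 1000000 against 43.6 in iMNs, which was 1.64 times higher.

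The 7 other members differed less between the cell types. *KIF1B* was 1.37 times and *KIF1C* 1.35 times higher in iMNs than in i3Ns, followed by *KIF3B* with 1.29, *KIFAP3* with 1.18 and both *KIF1A* and *KIF3A* with 1.16. *KIF3C*, with 579 per 1000000 in iMNs and 578 in i3Ns, had a ratio of 1.0, and its direction turned with the scaling. Among the subunits of the KIF3 heterotrimer, *KIF3B* was at 1.32 times *KIF3A* per length in iMNs and 1.18 times in i3Ns, and *KIF3C* at 3.08 and 3.56 times.

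The ratios of all genes were counted over the 13317 genes whose authors' mean reached 100 in 1 table or both, and 11.9% of them had a ratio above 2 and 9.49% one below 0.5. Of the 10 members, *KIF17* was the 1 above 2 and *KIF13B* the 1 below 0.5, shares near those of all genes. *KIF17* reached the mean of 100 only in iMNs (848, against 69.7 in i3Ns), so its ratio rests on a low i3N mean. The 9 other members reached it in both cell types. The median log2 ratio was 0.23 for the members and -0.04 for all genes, and the lower and upper quartiles of all genes were -0.44 and 0.44. A ratio lower than that of *KIF13B* was found for 4.22% of the genes, and 98.4% had a ratio lower than that of *KIF17*. Over the 4 scalings tried, the ratio of *KIF17* ranged from 12.2 to 13.0 and that of *KIF13B* from 0.292 to 0.313. Each scaling multiplies the ratios of all genes by a common factor, so these ranges do not show how firm either ratio is. Neuron type, line of origin and way of differentiating cannot be told apart in these ratios. Each mean also pools SCR and *SMN*-KD libraries, so any unequal response of the cell types to *SMN*-KD is mixed into these ratios.

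**Figure D2:**
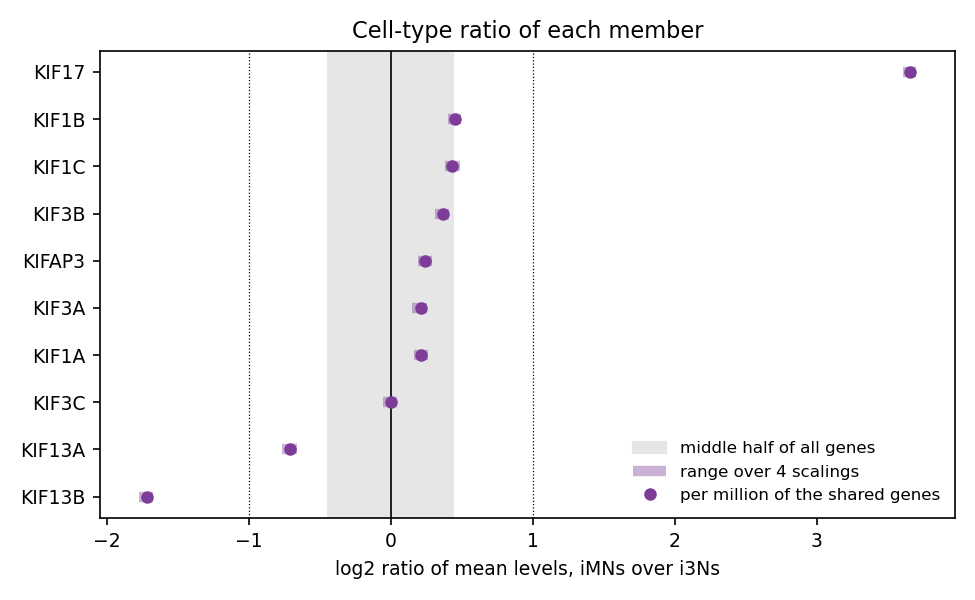
Log2 ratio of the authors' mean in iMNs to that in i3Ns for each member, with the point for the per 1000000 scaling and the bar for the range over the 4 scalings tried (per 1000000, median of ratios, no rescaling, and without the 100 highest genes). The grey band spans the log2 ratios from -0.44 to 0.44 between the quartiles of all genes, and the dotted lines mark 2-fold. *KIF17* (3.66) and *KIF13B* (-1.72) lie outside the dotted lines under each scaling. A scaling shifts all members by the same amount, so the bars do not show the spread between libraries.

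Markers of the cell types were examined in the same tables, since fewer cells of a type and less RNA per cell cannot be told apart in these libraries. All 8 motor neuron genes were listed in both tables, and 4 of them were higher in i3Ns. *MNX1*, which encodes HB9 itself, had a mean of 430 normalized counts in iMNs and 2279 in i3Ns, and the motor neuron factor *ISL1* had 1663 and 14299. *ISL2* and *LHX3* were also higher in i3Ns, by 48.5 and 14.7 times, over low iMN means of 70.6 and 15.1. The choline transporter *SLC5A7* was 3.56 times higher in iMNs, and *CHAT*, the enzyme that makes acetylcholine, differed little with means of 533 and 527. The defining transcription factors of motor neurons thus ran against the labels, while *SLC5A7* and the vesicular acetylcholine transporter *SLC18A3* had the higher means in iMNs.

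Of the 9 genes of glutamatergic cortical neurons, 7 were in the iMN table and 9 in the i3N table. The vesicular glutamate transporters *SLC17A7* and *SLC17A6* were 125 and 18.2 times higher in i3Ns, and the iMN mean of *SLC17A7* was low at 50.1. The cortical factor *TBR1* had 10.2 in iMNs and 1801 in i3Ns, whereas the kinase *CAMK2A* (506 and 14.2) and the NMDA receptor subunit *GRIN1* (3599 and 717) of the same list had the higher means in iMNs. Genes of all neurons summed to a length-scaled level of 6949 in iMNs and 6943 in i3Ns, sums made up mostly of *STMN2* (3063 and 3175) and *TUBB3* (2460 and 2950). The synaptic vesicle gene *SYN1* of that list was 3.3 times higher in iMNs, and the median log2 ratio of its 5 genes was 0.50. Markers of dividing or progenitor cells summed to 86.1 in iMNs and 393 in i3Ns, of which *NES* alone gave 78.0 and 383. *MKI67* and *TOP2A* of that list were 17.7 and 13.3 times higher in i3Ns, over low iMN means of 28.3 and 22.5. By contrast, *PAX6* (6.13 and 2.67 per length) and *SOX2* (1.54 and 1.11) of that list had the higher levels in iMNs. The sum for pluripotent cells, 3.88 and 77.0, was nearly all *LIN28A*. Mesenchymal markers summed to 36.7 and 105, with *COL1A2* (9.73 and 8.65) going the other way. Glial markers summed to 9.24 and 35.4, from *MBP* (8.64 and 24.9) and *OLIG2* (0.599 and 10.5) alone. The glial markers *GFAP*, *AQP4* and *SOX10* were listed in neither table. The sums for dividing, pluripotent, mesenchymal and glial cells were higher in i3Ns, as were *KIF13A* and *KIF13B*, and their part in the ratios was not tested.

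Set against the whole kinesin superfamily, the 9 motors among the members supplied 50.2% of the length-scaled RNA of all kinesin heavy chains in iMNs and 44.9% in i3Ns. The comparison took a list of 44 heavy chain genes, of which 39 were in the iMN table and 43 in the i3N table. *KIF1A* and *KIF1B* accounted for 36.0% and 30.8% in iMNs and i3Ns, and *KIF3A*, *KIF3B* and *KIF3C* for 13.0% and 12.5%. The remaining 4 members, *KIF17*, *KIF1C*, *KIF13A* and *KIF13B*, accounted for 1.28% and 1.58%. The kinesin-1 heavy chains *KIF5A*, *KIF5B* and *KIF5C*, which carry mitochondria and other cargo, held 30.9% in iMNs and 40.2% in i3Ns. The study reported lower *KIF5A* RNA after *SMN*-KD in both cell types. These shares pool SCR and *SMN*-KD libraries, so they are not those of SCR neurons alone.

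*KIF1A* was the highest kinesin in iMNs, at 1.35 times *KIF5C*, and was second to *KIF5C* in i3Ns, at 0.888 times its level. This order in i3Ns rests on the division by transcript length, since the authors' mean that was not taken per length was higher for *KIF1A* than for *KIF5C* in both cell types (138858 and 78398 in iMNs, 124466 and 106712 in i3Ns). *KIF1A* was 2.11 times as high as *KIF5A* in iMNs and 1.68 times in i3Ns, in means that include the *SMN*-KD libraries. The highest kinesins outside these 3 families were *KIF21B*, *KIF21A* and *KIFC2*. *KIF21B*, a motor that also acts on microtubule growth, had a length-scaled level of 361 in iMNs, between *KIF5A* and *KIF3C*, and one of 255 in i3Ns. Mitotic kinesins supplied 0.708% of the heavy chain RNA in iMNs and 1.37% in i3Ns, and 11 and 14 of the 14 on the list were in the tables. The remaining kinesin-3 genes were low, with *KIF16B*, an endosome motor, at 5.21 and 12.7, *STARD9* at 5.46 and 12.8 and *KIF14*, a motor of cell division, at 0.254 and 1.09.

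**Figure D3:**
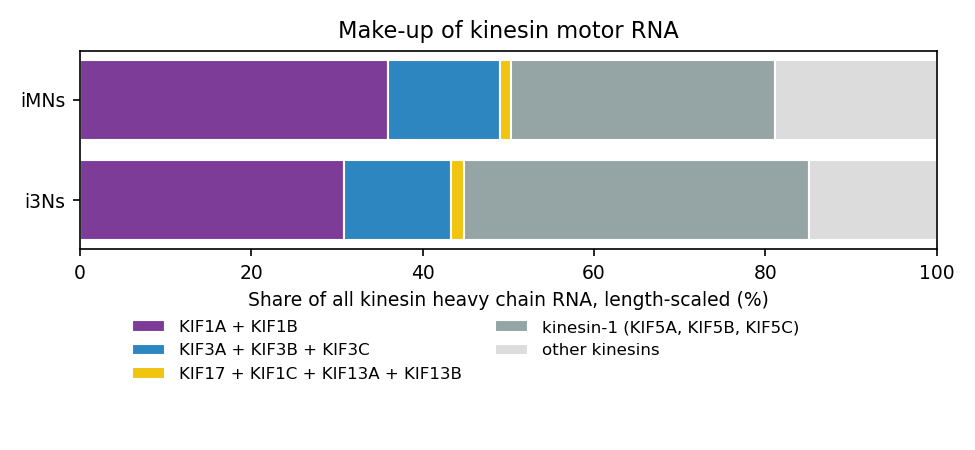
Share of the length-scaled RNA of all kinesin heavy chains (percent) held by groups of motors in iMNs and in i3Ns, from the authors' means over the libraries of each cell type. The 9 member motors fill the first 3 segments and reach 50.2% in iMNs and 44.9% in i3Ns, and kinesin-1 follows with 30.9% and 40.2%.

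Cargo adaptors and regulators of these motors were present in both cell types. All 21 genes of a list of such partners were in both tables. Of these, 13 had a ratio of iMNs to i3Ns above 1, as had 47.2% of all genes. The median log2 ratio was 0.20 for the partners and -0.04 for all genes. A ratio above 2 was found for 2 of the 21 partners and one below 0.5 for 1, against 11.9% and 9.49% of all genes. *RAB3A*, a synaptic vesicle GTPase carried by KIF1A and KIF1B, had the highest length-scaled level of the list in iMNs with 683, against 264 in i3Ns, and was 2.69 times higher in iMNs. *ADAP1*, which binds KIF13B, was 2.11 times higher in iMNs, whereas *DLG1*, which also binds KIF13B, was 1.69 times higher in i3Ns. *PTPN21*, a phosphatase that binds KIF1C, was 4.56 times higher in i3Ns.

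Other partners differed less between the cell types. *MADD*, which links KIF1A and KIF1B to RAB3 vesicles, had length-scaled levels of 116 and 106 in iMNs and i3Ns, and *CASK*, a scaffold of the complex that joins KIF17 to NMDA receptor vesicles, had 173 and 125. *APBA1* of the same complex had 154 and 105. Both genes lay above *KIF17* in each cell type, which was at 15.4 in iMNs and 1.27 in i3Ns. *KIFBP*, which binds and holds back several kinesin-3 motors, had 54.5 and 69.2. The lowest levels of the list in iMNs were those of the scaffold *DLG1* with 11.6, the liprin *PPFIA4* with 11.7 and *PTPN21*, and those in i3Ns of *PPFIA4* with 10.6, *BORCS5* of the lysosome-bound BORC complex with 15.0 and *DLG1* with 20.3.

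The 3′-UTRs of the members were searched for short matches to the shRNAs, because bases 2 to 8 of an shRNA guide strand can bind transcripts other than its target. The guides were taken as the reverse complements of the shRNA target sequences given in the study's methods, counted from the 5′ end. For the *SMN* guide, the letters searched were CTAATAA opposite guide bases 2 to 8, called its seed match. The shifted match, opposite bases 3 to 9 of that guide, is GCTAATA on the transcript. For the scrambled guide the seed match is CTAGTAA on the transcript. Its shifted match is ACTAGTA on the same strand. Only the sense strand of the MANE Select 3′-UTR was read, since the guide binds the transcript. The seed match and the shifted match of a guide overlap by 6 bases, so both can lie at 1 site. Among the 10 members, *KIFAP3* was the 1 with a match. Its site, shown because no other member has one, lies in exon 20 from 169921595 to 169921601 on the minus strand of chromosome 1, at base 75 of the 3′-UTR, with the 7 matching bases in capitals.
KIFAP3 site: tggatctttgcCTAATAAtgcatgttgatg

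No member had the shifted *SMN* match or either match of the scrambled guide in this UTR. Among 14105 genes in both tables with such a 3′-UTR, 15.1% held the seed match and 8.66% the shifted match of the *SMN* guide, and 8.0% and 6.32% those of the scrambled guide. At least 1 match was held by 19.1% of these genes for the *SMN* guide and by 11.4% for the scrambled guide. The matches describe sequence alone, and other 3′-UTRs of the same genes were not searched. The *KIFAP3* mean pools SCR and *SMN*-KD libraries, so no level could be set beside the site.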

How the data were processed

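Per the study's methods, the authors removed adapters with fastp, used Salmon for transcript quantification, and ran DESeq2 to set *SMN*-KD against SCR within each cell type. The submitters' processing notes also name STAR, which the study's methods give as the aligner for its separate splicing analysis. Versions, transcript annotation and the filter on low counts are not given in the sources used here. The deposited signal is the mean normalized count of each gene, which DESeq2 defines as counts divided by size factors and averaged, here by the authors over the 6 libraries of a cell type. The tables also hold log2 fold changes, standard errors, p-values and adjusted p-values, which are the authors' own comparison and were not used. No test on counts per library was run, because the tables analysed here hold means.

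Members were matched by gene name and other genes by Ensembl identifier. Lengths and positions came from GENCODE release 44 on GRCh38 (hg38). MANE Select lengths were used where a gene had one and the longest transcript otherwise, and 693 genes in the iMN table and 878 in the i3N table had no entry and no length. Ratios used genes in both tables. The alternatives changed the length, the genes in the sum and the scaling. The steps were checked on simulated tables, with Python 3.11.15 and pandas 2.3.3. The members and gene lists were chosen with earlier results of these data known. The genes named were the members, *KIF5A*, *KIF5B* and *KIF5C*, the 3 highest other kinesins, cell type markers, and partners from a list by the 3 highest and lowest levels. The other kinesin-3 genes, *ADAP1*, *MADD*, *APBA1* and *KIFBP* were added after their values were seen. Some genes that the rule names are not reported here. No gene was named for a pattern like that of a member, since 2 pooled values a gene give none.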

Additional observations from a re-analysis of the deposited data

How the results depend on the processing

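No paired analysis was possible because each deposited value pools the 6 libraries of a cell type. For the same reason no replicate could be left out, and the planned fits with and without a block, a filter or another tool were not run. Per length, 7 members in iMNs and 8 in i3Ns lay above the median gene, and 6 did in each with the coding length. With only genes of a mean of at least 10 counted, 7 did in each. The lowest mean listed was 7.73 in iMNs and 1.37 in i3Ns. The ratio of *KIF3C* turned to the other side of 1 with means as deposited (0.964) and without the 100 highest genes (0.997), and the 9 other members kept their side of 1 under all 3 scalings. The share of kinesin heavy chain RNA held by the members was 55.7% in iMNs and 50.6% in i3Ns when not taken per length. It was 50.6% in iMNs and 45.5% in i3Ns without the mitotic kinesins. The coding length put 6 members in iMNs and 3 in i3Ns at another place of the order. *KIF17* ranged from 12.2 to 13.0 and *KIF13B* from 0.292 to 0.313 (iMNs over i3Ns) across the 4 scalings. These ranges reflect only the factor common to all genes in each scaling. Depth is unknown, so no counting error can be given for any member.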
